A study of Mus musculus with 24 samples.

Results

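The transcription factor genes Nkx1-2, Evx1, Evx2, Sp5, Sp8 and Gbx2 are described here across the differentiation of mouse embryonic stem cells (mESCs) towards neuromesodermal progenitors (NMPs). The 6 genes were taken by symbol from the raw count table, where each has 1 row among 35591 genes. NMPs are cells of the caudal epiblast that give rise to spinal cord and paraxial mesoderm. The study sequenced poly(A) RNA from 6 male mESC lines, 3 wild-type for Smchd1 (wt, Smchd1[fl/+]) and 3 heterozygous for its deletion (het, Smchd1[del/+]), each at day 0, day 2, day 2.5 and day 3. Smchd1 encodes a chromatin protein involved in gene silencing, and the comparison of genotypes asked what the loss of the paternal copy in the cells themselves does to expression. All lines were first generation hybrids of a Castaneus mother with intact Smchd1 and a C57BL/6 father, so every line began with maternal SMCHD1, and the wt lines also carried a floxed allele. Per the study, its lines were kept in a medium with LIF and the Wnt activator CHIR99021. Before day 0, this medium was replaced stepwise with serum medium holding LIF. Day 0 cells were grown in serum with LIF and then moved to a defined medium with bFGF. CHIR99021 was added at day 2, and the day 3 cells were taken before GDF11 was given. The lines are the replicates, and the 4 libraries of each line are repeated measures.

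All 6 genes encode DNA-binding proteins with known roles at the posterior end of the embryo. Nkx1-2 is an NK family homeobox gene that marks the caudal lateral epiblast, in which NMPs lie. Evx1 and Evx2 are even-skipped homeobox genes, of which Evx1 is expressed in the primitive streak and tail bud and Evx2 sits at the 5′ end of the HoxD cluster. Sp5 and Sp8 are Sp family zinc finger genes, known as targets and partners of Wnt/β-catenin signalling in the streak and tail bud. Gbx2 is a homeobox gene of the caudal epiblast and the anterior hindbrain that is also expressed in naive mESCs, where LIF signalling acts on it. Canonical Wnt signalling works through β-catenin and the TCF/LEF factors, which bind DNA at the core CTTTGAT or the related core CTTTGAA.

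The 6 genes lie at 6 separate positions in GRCm38.p6. Nkx1-2 is at chr7:132594878-132599637 on the minus strand, Evx1 at chr6:52313498-52318378 on the plus strand and Evx2 at chr2:74652991-74659557 on the minus strand. Sp5 is at chr2:70474923-70477729 on the plus strand, Sp8 at chr12:118846329-118852576 on the plus strand and Gbx2 at chr1:89927956-89931179 on the minus strand. The exons of 3 of them overlap an annotated gene on the opposite strand, by 541 bp for Nkx1-2 with Gm16764, by 73 bp for Evx1 with Evx1os and by 946 bp for Gbx2 with D130058E05Rik. The kit was stranded or non-stranded, not stated for each library, so reads from such pairs cannot be told apart. Of the 75-base stretches in the longest transcript, 57.7% occurred in no other gene's transcripts on either strand for Gbx2, 87.6% for Nkx1-2 and 99.8 to 100% for the others. The overlapping genes on the opposite strand were among the other genes searched.

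The sequences before the start of Sp5, Nkx1-2 and Evx1 are shown because these genes rose from few or no counts at day 2 to their highest level at day 2.5. They are the 250 bases before each RefSeq start (GRCm38.p6), 5′ to 3′ on the gene's strand, at chr2:70474673-70474922 (plus strand), chr7:132599638-132599887 (minus strand) and chr6:52313248-52313497 (plus strand). Capitals mark matches on either strand to the TCF/LEF cores given above, to the GC box GGGCGG that Sp factors bind, or to the caudal type homeobox site TTTATNG.
Sp5: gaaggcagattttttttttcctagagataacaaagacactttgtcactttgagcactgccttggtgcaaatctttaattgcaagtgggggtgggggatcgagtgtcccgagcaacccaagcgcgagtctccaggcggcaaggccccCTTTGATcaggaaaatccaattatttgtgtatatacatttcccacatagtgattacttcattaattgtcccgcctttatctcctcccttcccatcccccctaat
Nkx1-2: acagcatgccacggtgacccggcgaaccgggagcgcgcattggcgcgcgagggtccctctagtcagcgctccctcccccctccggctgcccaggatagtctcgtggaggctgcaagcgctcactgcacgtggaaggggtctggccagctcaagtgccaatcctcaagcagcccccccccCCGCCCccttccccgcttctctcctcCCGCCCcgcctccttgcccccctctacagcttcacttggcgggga
Evx1: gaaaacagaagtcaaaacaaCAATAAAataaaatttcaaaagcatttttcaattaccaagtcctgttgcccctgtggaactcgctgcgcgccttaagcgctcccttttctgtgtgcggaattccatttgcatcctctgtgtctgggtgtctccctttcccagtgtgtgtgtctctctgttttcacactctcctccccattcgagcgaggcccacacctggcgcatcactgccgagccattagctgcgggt

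The search covered 300-base RefSeq windows, which add 50 bases after the start, and all 6 genes had at least 1 window. In Sp5, CTTTGAT began 104 bases before the start on the gene's own strand, and it occurred in 3.73% of all 32851 windows. The only match to CTTTGAA was in the second of the Sp8 windows, 51 bases before that window's start on the opposite strand, against 5.14% of all windows. GGGCGG matched at 71 and 45 bases before the Nkx1-2 start, 137 bases before and 44 bases after the Gbx2 start and 14 bases before the second Sp8 start, and it was in 35.7% of windows. TTTATNG matched 230 bases before the Evx1 start, 134 before Evx2, 231 before the first Sp8 start and 175 before the third, against 10.9% of windows. These are letter matches, and no binding was measured.

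The libraries held 7.10 to 20.8 M (mega) counts, with a median of 17.9 M and the lowest total in wt line 2 at day 2.5. Levels are given as counts per M counts (CPM) scaled by composition factors, with a level of 3 counts per library taken as the least that could be shown. Across genes, log2 CPM correlated at 0.977 to 0.994 within groups. The mean of Smchd1 was lower in het on each day, for example 95.2 ± 6.15 against 143 ± 10.3 CPM on day 0 and 106 ± 1.95 against 193 ± 23.4 CPM on day 3 (SD, n = 3). T (Brachyury) and Cdx2, which define the caudal epiblast, were at or below 2.57 CPM in every group at day 0 and day 2. At day 2.5, T reached 300 ± 130 CPM in wt and 350 ± 33.6 in het, and Cdx2 reached 141 ± 33.5 and 144 ± 16.6 CPM (SD, n = 3).

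**Figure D1:**
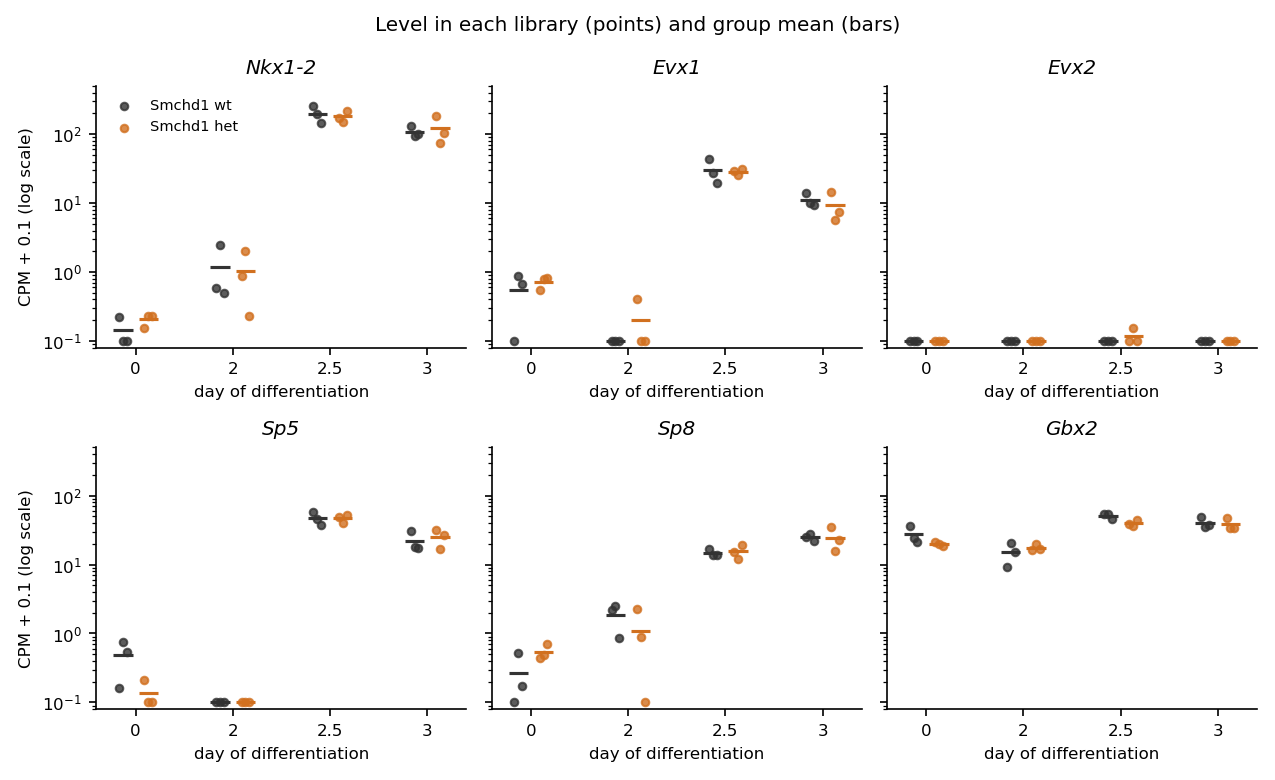
Level of each gene in all 24 libraries. The x axis is the day of differentiation and the y axis is CPM plus 0.1 on a log scale, with a point for each library and a bar for the mean of 3 lines (wt dark, het orange). From day 2 to day 2.5, Nkx1-2, Evx1, Sp5 and Sp8 rose from at most 2.40 CPM in any library, Gbx2 rose from a level already present at day 0, and Evx2 stayed at the floor in 23 libraries.

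Between day 2 and day 2.5, the interval in which Wnt signalling was activated, 5 of the 6 genes rose in both genotypes. Nkx1-2 and Sp8 rose from low levels, Evx1 and Sp5 from no counts in 5 and 6 of the 6 lines, and Gbx2 from a moderate level. Evx2 was not tested, since its only count was 1 in het line 2 at day 2.5. The edgeR quasi-likelihood test called 5 of the 5 members tested higher in wt, where 14.6% of all genes tested were called higher, and 5 of 5 in het, where 21.8% were (adjusted p under 0.05, Benjamini-Hochberg over all genes). Sp5, Evx1 and Nkx1-2, and Sp8 in het, passed the filter on low counts through their day 2.5 libraries alone, so that these counts describe the set and are no test of it.

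Nkx1-2 was the most abundant of the set at day 2.5 and day 3. Its day 2 counts were 10, 44 and 8 in wt lines 1 to 3 and 13, 32 and 2 in het lines 1 to 3. At day 2.5 they were 4730, 1437 and 2488 in wt and 3542, 2903 and 4428 in het. As CPM, these were 255, 197 and 146 in wt and 174, 152 and 218 in het. All 6 day 2.5 libraries stood far above all 6 day 2 libraries, and the genotypes overlapped at both days. The ratio of mean CPM was 185-fold in wt and 192-fold in het, and the fitted log2 fold change was 7.56 (SE 0.42, edgeR adjusted p = 1.11e-07) and 7.54 (SE 0.31, edgeR adjusted p = 6.14e-10). Line 2, with the most day 2 counts in both genotypes, weighed on these values, and without it the log2 fold change was 8.80 in wt and 8.68 in het. Without het line 3 it was 6.90. Nkx1-2 had passed the filter on low counts through its day 2.5 libraries alone, so that the p values are no test of its rise.

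Sp5 went from 0 counts in all 6 day 2 libraries to 1073, 332 and 637 counts in wt and 990, 756 and 1074 in het. As CPM, the day 2.5 levels were 57.8, 45.6 and 37.4 in wt and 48.6, 39.5 and 53.0 in het. Against 3 counts per library at day 2, Sp5 was at least 308-fold higher at day 2.5 in wt and at least 254-fold higher in het. The difference between these bounds follows the depth of the day 2 libraries, since the day 2.5 means were nearly equal at 46.9 and 47.0 CPM.

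Evx1 had 0 counts in all 3 wt libraries at day 2 and 5, 0 and 0 counts in het. At day 2.5 it had 807, 199 and 333 counts in wt and 595, 489 and 629 in het, or 43.5, 27.3 and 19.5 CPM and 29.2, 25.6 and 31.0 CPM. The 3 wt lines spread over a wider range than the 3 het lines, which lay inside it. The rise was at least 198-fold in wt. In het, the ratio of mean CPM was 283-fold with a 95% counting interval of 119 to 859, since it rests on the 5 counts of line 1. Without that line no count remains at day 2 in het, so that the size of the rise cannot be measured.

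Sp8, the relative of Sp5, was already counted at day 2, with 42, 45 and 15 counts in wt and 36, 13 and 0 in het. At day 2.5 it reached 16.7, 13.7 and 13.7 CPM in wt and 15.2, 11.9 and 19.4 CPM in het. Every day 2.5 library lay above every day 2 library, of which the highest was 2.40 CPM. The log2 fold change was 3.09 in wt (SE 0.37, edgeR adjusted p = 8.02e-05) and 3.94 in het (SE 0.56, edgeR adjusted p = 6.34e-05). The het value was 5.28 without line 1 and 3.19 without line 3. In het, Sp8 had passed the filter on low counts through its day 2.5 libraries alone, so that the het p value is no test of the rise.

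Gbx2 moved least. It was at 9.03, 20.6 and 15.3 CPM in wt and 16.2, 19.6 and 16.6 CPM in het at day 2, and at 54.1, 54.1 and 45.0 CPM in wt and 38.4, 35.7 and 44.6 CPM in het at day 2.5. Again no day 2.5 library overlapped a day 2 library. The log2 fold change was 1.78 in wt (SE 0.24, edgeR adjusted p = 0.000208) and 1.18 in het (SE 0.14, edgeR adjusted p = 1.16e-05). The difference of these changes, 0.60 lower in het, had a 95% interval that reached 0 and was not called, as given with the interactions.

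**Figure D2:**
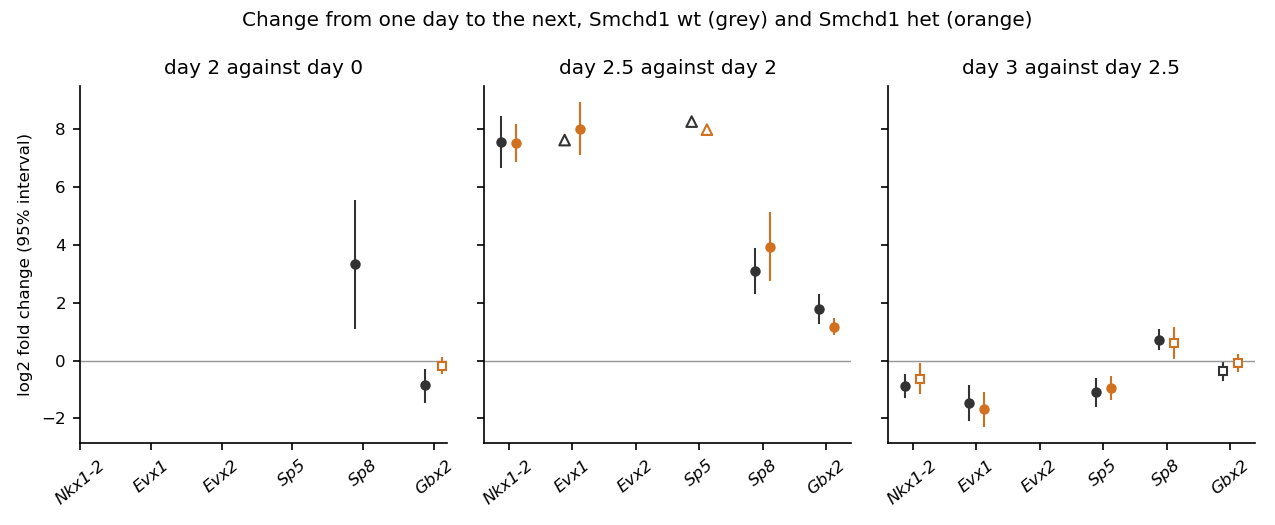
Change of each gene from one sampled day to the next. On the y axis are log2 fold changes from edgeR with 95% intervals, for wt (dark) and het (orange), with filled circles for adjusted p under 0.05 and open squares otherwise. Open triangles give lower bounds where all earlier libraries had 0 counts, and genes without a symbol did not pass the filter on low counts. The middle panel holds the large rises, and in the right panel Sp8 alone lies above 0 in both genotypes.

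Before CHIR99021 was added at day 2, the set split into Gbx2 and the rest. At day 0 Gbx2 was at 36.5, 24.3 and 21.2 CPM in wt and 20.9, 19.8 and 18.7 CPM in het, whereas no other member exceeded 0.773 CPM in any day 0 library. From day 0 to day 2, in which all 10 LIF response and naive pluripotency genes tested fell in both genotypes, Gbx2 fell in wt by 0.86 on the log2 scale (SE 0.27, edgeR adjusted p = 0.0195). In het its log2 fold change was -0.17 (SE 0.14, edgeR adjusted p = 0.346), although all 6 lines were lower at day 2 than at day 0. Sp8 rose in wt by a log2 fold change of 3.34 (SE 1.04, edgeR adjusted p = 0.0181), from 0, 7 and 1 counts to 42, 45 and 15. In het, Sp8 went from 6, 6 and 9 counts to 36, 13 and 0, which did not pass the filter on low counts. In all, 2 of the 2 members tested were called in wt, against 44.3% of all genes, and 0 of 1 in het, against 56.1%. The DESeq2 Wald test also called 2 in wt and 0 in het, and the member tested in het had an unadjusted p of 0.267. Without wt line 1, Gbx2 changed by -0.33 (edgeR adjusted p = 0.234) and Sp8 by 2.61 (edgeR adjusted p = 0.0534), and Evx1 was the 1 member called, lower. Without wt line 3 no member was called, although the values were as large, at -1.06 for Gbx2 (edgeR adjusted p = 0.062) and 3.37 for Sp8 (edgeR adjusted p = 0.0894). Without wt line 2 both calls held, at -1.24 and 5.11. Sp8 had passed the filter through its day 2 libraries alone. Without wt line 1, Evx1 passed it through its day 0 libraries alone, in a fit that called 6363 genes.

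The remaining low counts at day 0 and day 2 were few. Sp5 had 1, 11 and 6 counts in wt and 2, 0 and 0 in het at day 0, and none at day 2. Evx1 had 0, 13 and 8 counts in wt and 8, 11 and 11 in het at day 0, so 5 of 6 lines had a few counts that only 1 line kept at day 2. Nkx1-2 went the other way, with at most 2 counts in any day 0 library and 2 to 44 at day 2. In the fits of day 0 and day 2 alone, Sp5, Evx1 and Nkx1-2 did not pass the filter in either genotype. In the single fit of all 24 libraries, their day 2.5 and day 3 libraries counted towards the filter. There Sp5 and Evx1 were called lower and Nkx1-2 higher at day 2 in wt, and Evx1 lower and Nkx1-2 higher in het. These calls rest on few counts and are given as a description, beside 8258 genes called in wt and 8233 in het.

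From day 2.5 to day 3 the genes parted. Evx1 and Sp5 fell in both genotypes, Nkx1-2 fell in wt, Sp8 rose in wt and Gbx2 passed the test in neither. In wt 4 of the 5 members tested were called, against 19.1% of all genes, and in het 2 of 5, against 29.8%. Without wt line 2 none of the wt calls held, as given with Gbx2 below. With the line as a block, which the repeated measures of the same line allow, 5 of 5 were called in wt and 4 of 5 in het, where 30.7% and 30.9% of all genes were.

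Evx1 fell the most, to 13.8, 10.0 and 9.16 CPM in wt and 14.5, 5.50 and 7.40 CPM in het at day 3. Its level dropped in 6 of 6 lines, and no day 3 library reached the lowest day 2.5 library. The mean at day 3 was 36.5% of that at day 2.5 in wt and 32.0% in het. Fitted log2 fold changes were -1.46 (SE 0.28, edgeR adjusted p = 0.0066) and -1.69 (SE 0.27, edgeR adjusted p = 0.00103).

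Sp5 fell to 30.4, 17.9 and 17.5 CPM in wt and 31.4, 16.6 and 26.7 CPM in het. It was lower in 6 of 6 lines, without overlap between the days in either genotype. The log2 fold change was -1.10 in wt (SE 0.23, edgeR adjusted p = 0.00959) and -0.96 in het (SE 0.19, edgeR adjusted p = 0.00356). Without het line 3 the het call was lost, at -0.89 (edgeR adjusted p = 0.0532).

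Nkx1-2 was at 131, 93.8 and 99.6 CPM in wt and 183, 75.4 and 105 CPM in het at day 3. All 3 wt lines were lower than at day 2.5, as were 2 of the 3 het lines, and het line 1 was slightly higher. The log2 fold change was -0.89 in wt (SE 0.19, edgeR adjusted p = 0.0104) and -0.62 in het (SE 0.25, edgeR adjusted p = 0.0788). With the line as a block, the het change was -0.70 (edgeR adjusted p = 0.0137), and without het line 1 it was -1.07 (edgeR adjusted p = 0.00379).

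Sp8 was higher at day 3 than at day 2.5 in 6 of 6 lines, at 24.7, 27.3 and 22.0 CPM in wt and 35.0, 15.9 and 22.6 CPM in het. In wt the days did not overlap, while in het the lowest day 3 line lay inside the day 2.5 range. The log2 fold change was 0.73 in wt (SE 0.17, edgeR adjusted p = 0.0142) and 0.62 in het (SE 0.25, edgeR adjusted p = 0.0849). With the line as a block, the het change was 0.58 (edgeR adjusted p = 0.0285), and without het line 2 it was 0.69 (edgeR adjusted p = 0.0491). Besides the fit without line 2, the wt call was lost without line 3, at 0.75 (edgeR adjusted p = 0.0772), and in the single fit of all 24 libraries, at 0.73 (edgeR adjusted p = 0.205).

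Gbx2 was at 48.7, 34.7 and 36.9 CPM in wt and 47.7, 34.0 and 33.4 CPM in het at day 3, overlapping its day 2.5 levels in both. The log2 fold change was -0.35 in wt (SE 0.16, edgeR adjusted p = 0.137) and -0.08 in het (SE 0.14, edgeR adjusted p = 0.708). In wt, Gbx2 was called lower with the line as a block and without wt line 1. Without wt line 2, whose day 2.5 library was the shallowest, no member was called in wt from day 2.5 to day 3, and the genes called in all went from 2923 to 29. The log2 fold changes from the remaining lines were of similar size, at -1.47 for Evx1, -1.0 for Sp5, -0.81 for Nkx1-2 and 0.61 for Sp8 (edgeR adjusted p = 0.112 to 0.17). Leaving out line 1 gave 5 members, against 20.1% of all genes, and leaving out line 3 gave 3, against 6.35%.

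**Figure D3:**
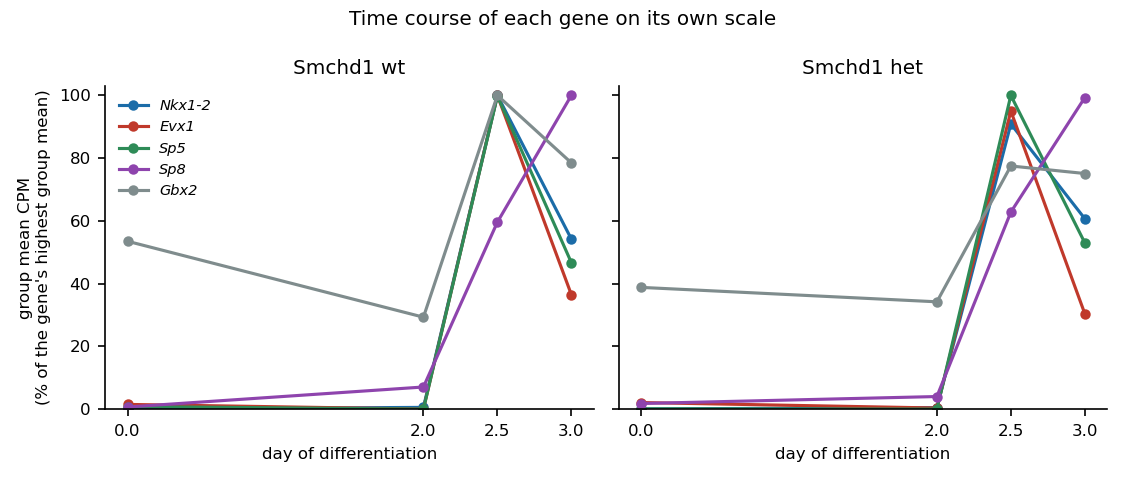
Time course of the 5 expressed genes, each on its own scale. The x axis is the day and the y axis is the group mean CPM as a percentage of the gene's highest group mean, with wt on the left and het on the right. Nkx1-2, Evx1 and Sp5 peaked at day 2.5 and were at 30.4 to 60.7% at day 3, while Sp8 had its highest mean at day 3 and Gbx2 never fell below 29.3%.

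The order of the 8 group means placed the late days first for each expressed gene. For Nkx1-2 the order was day 2.5 and then day 3, with wt and het adjacent on each day, and all neighbours among these 4 groups overlapped. A gap without overlap separated the lowest of them, wt day 3 at 108 ± 20.0 CPM, from wt day 2 at 1.08 ± 1.10 CPM (SD, n = 3). For Evx1 and Sp5 there were 2 such gaps, between day 2.5 and day 3 and between day 3 and day 0, and wt and het overlapped on each day. For Sp8, wt and het day 3 came first, and the neighbours overlapped down to wt day 2.5 at 14.7 ± 1.73 CPM, which stood clear of wt day 2 at 1.74 ± 0.872 CPM (SD, n = 3). For Gbx2 the highest mean was wt day 2.5 at 51.1 ± 5.25 CPM and the lowest wt day 2 at 15.0 ± 5.79 CPM (SD, n = 3). In Gbx2 only wt and het day 0, at 27.3 ± 8.12 and 19.8 ± 1.08 CPM, were neighbours without overlap.

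Levels were compared between genes as reads per kilobase of merged exon per M counts (RPKM, from the CPM). At day 2.5 in wt, Nkx1-2 stood at 61.1 ± 16.7 RPKM, Gbx2 at 23.5 ± 2.41, Sp5 at 22.4 ± 4.90, Evx1 at 10.5 ± 4.24 and Sp8 at 3.23 ± 0.380 (SD, n = 3). In het the levels were 55.6 ± 10.4, 18.2 ± 2.11, 22.4 ± 3.26, 9.94 ± 0.964 and 3.40 ± 0.831 RPKM in the same order of genes. The groups of Sp5 and Gbx2 overlapped in both genotypes, and within libraries Sp5 lay above Gbx2 in 3 of 3 het lines and 1 of 3 wt lines. By day 3, Sp8 at 5.42 ± 0.583 RPKM in wt and 5.38 ± 2.13 in het stood above Evx1 at 3.82 ± 0.854 and 3.18 ± 1.66 (SD, n = 3). Sp8 was below Evx1 in 6 of 6 libraries at day 2.5 and above it in 6 of 6 at day 3.

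Ratios of 2 genes within a library do not depend on its depth. The ratio of Sp8 to Sp5 in RPKM was 0.133 to 0.169 over the 6 lines at day 2.5 and 0.374 to 0.704 at day 3, higher in 6 of 6 lines. The ratio of Evx1 to Nkx1-2 went from 0.152 to 0.194 at day 2.5 to 0.0801 to 0.122 at day 3, lower in 6 of 6 lines. The pairs of genes were chosen after their values were seen, and the values are given as a description.

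**Figure D4:**
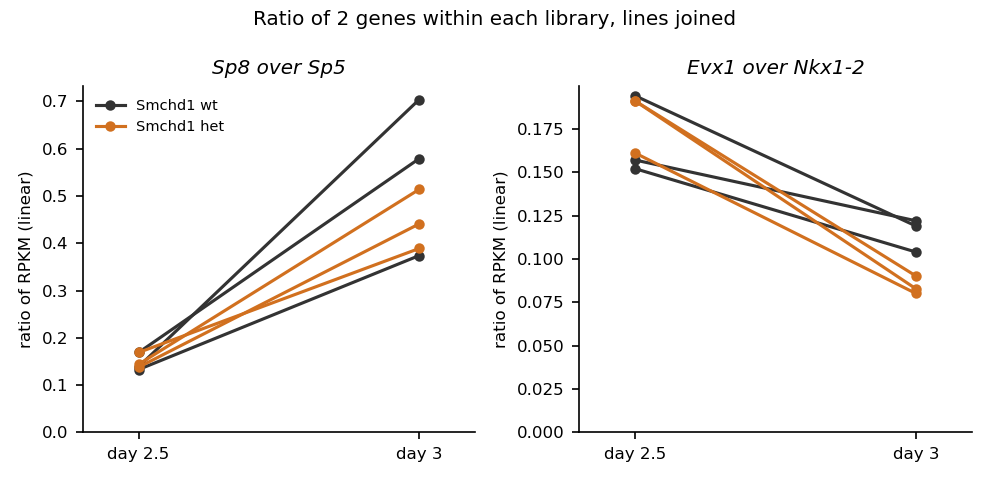
Ratio of Sp8 to Sp5 (left) and of Evx1 to Nkx1-2 (right) within each library, from RPKM on a linear axis that starts at 0. Each line joins the day 2.5 and day 3 libraries of the same mESC line, with wt dark and het orange. The first ratio rose in 6 of 6 lines and the second fell in 6 of 6.

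No member was called different between het and wt on any day. The edgeR quasi-likelihood test called 0 of 2 members tested on day 0 and 0 of 3 on day 2, then 0 of 5 on each of day 2.5 and day 3. The shares of all genes called were 0%, 0.551%, 0% and 0.00638%. Smchd1, the deleted gene, was called lower in het on day 2 and day 3 (edgeR adjusted p = 0.00824 and 0.0307). It was not called on day 0 or day 2.5 (edgeR adjusted p = 0.1 and 0.908), although its mean was lower in het on those days too. At an unadjusted p under 0.05 there was 1 member at day 0 and 1 at day 2.5, both times Gbx2, against 10.9% and 5.27% of all genes at that threshold. DESeq2 and every other alternative called 0 members on each day. At day 2.5 the log2 fold of het over wt was -0.13 for Nkx1-2 (95% interval -0.53 to 0.26) and 0.00 for Sp5 (-0.36 to 0.37). It was -0.08 for Evx1 (-0.58 to 0.43) and 0.07 for Sp8 (-0.36 to 0.51). At day 3 the intervals were of similar width, the widest being -0.98 to 0.40 for Evx1. At day 2 the intervals for Nkx1-2 (-2.16 to 1.79) and Sp8 (-2.80 to 1.16) were wide. Few counts lay behind these values, and the lines of a group also spread widely, from 8 to 44 counts for Nkx1-2 in wt and from 0 to 36 for Sp8 in het.

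Gbx2 was the member nearest to a difference between genotypes. All 3 het libraries lay below all 3 wt libraries at day 0 and again at day 2.5, in the CPM values given above. At day 2.5 line 3 of both genotypes was nearly level, at 45.0 CPM in wt and 44.6 in het, and with library totals in place of composition factors the genotypes overlapped on that day. Het lay wholly below wt in 7% of all genes tested at day 0 and in 5.26% at day 2.5. The log2 fold of het over wt was -0.50 at day 0 (SE 0.19, edgeR adjusted p = 0.39) and -0.36 at day 2.5 (SE 0.13, edgeR adjusted p = 0.908). It was 0.21 at day 2 (SE 0.24, edgeR adjusted p = 0.843) and -0.08 at day 3 (SE 0.16, edgeR adjusted p = 0.915). Exact permutation tests, two-sided, of 3 lines against 3 gave p = 0.1 for Gbx2 on both of the first 2 days named, the smallest p the design allows. Over the 20 pairs of a member and a day with any count, the permutation p adjusted by Benjamini-Hochberg was 1. Without wt line 1, the day 0 value was -0.21. Summed over 10 endoderm marker genes, levels were 142 to 247 CPM in het and 308 to 469 CPM in wt at day 0, 402 to 607 CPM in het and 769 to 1410 CPM in wt at day 2, and overlapped at day 2.5. At day 2, when the Gbx2 value was not below 0, 6 of the 9 markers tested were called lower in het, and at day 0 and day 2.5 none were. Without any 1 of the het lines, at most 3 genes of all those tested were called lower in het at day 2. None of the 10 was at 0 in all libraries of a group. Their part in the Gbx2 values was not tested.

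**Figure D5:**
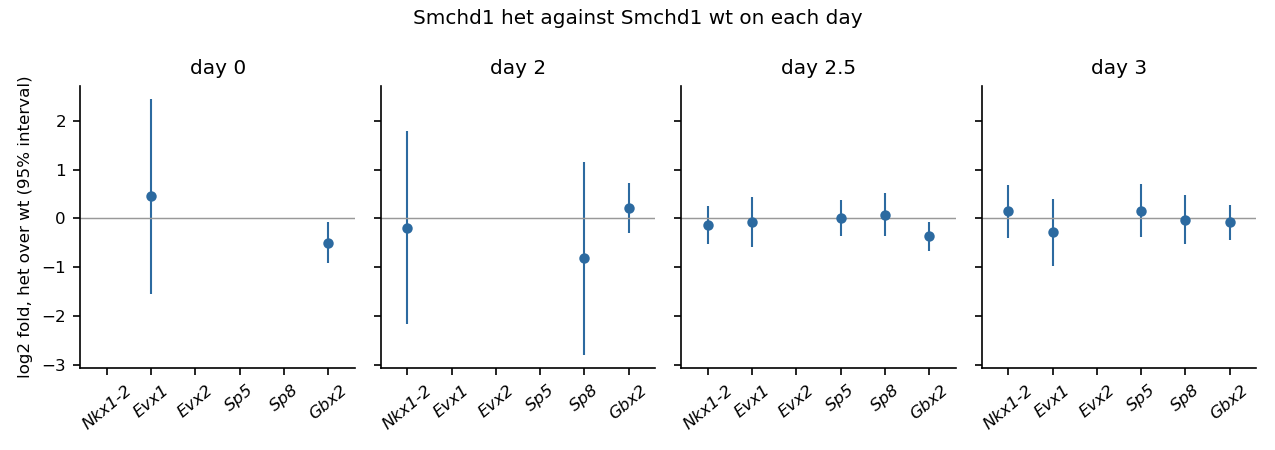
Difference between genotypes on each day. The y axis is the log2 fold of het over wt from edgeR with its 95% interval, and genes without a point did not pass the filter on low counts. At day 2.5 and day 3 the points lie between -0.36 and 0.16, and the intervals include 0 except for Gbx2 at day 0 and day 2.5.

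The change from one day to the next was also compared between genotypes. For the steps to day 2, day 2.5 and day 3, edgeR called 0 of 4, 0 of 5 and 0 of 5 members, with 0% of all genes called each time, and the DESeq2 Wald test called 0 members in each. At an unadjusted p under 0.05 there was Gbx2 in the step to day 2, with a difference of 0.71 (95% interval 0.01 to 1.41, edgeR adjusted p = 0.788), against 6.31% of all genes. In the step to day 2.5 there was Evx1, with a difference of -4.03 (95% interval -7.95 to -0.11, edgeR adjusted p = 0.953) that rests on the 5 counts of het line 1 at day 2 against none in wt, so that its size is not measured, and it was -0.10 without that line. In this step 5.13% of all genes passed the same threshold. For Gbx2 in that step the difference was -0.60 (95% interval -1.21 to 0.01, edgeR adjusted p = 0.953). In the step to day 3, the members differed by between -0.22 (Evx1) and 0.28 (Nkx1-2 and Gbx2).

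Evx2 was not detected at this depth. It had 1 count in all 24 libraries, in het line 2 at day 2.5, while its relative Evx1 had 4276. The largest library allows a level of up to 0.137 CPM at 3 counts. Evx2 lies 8753 bp from Hoxd13 on chromosome 2, and of the 18 counted genes within 100 kb, Hoxd4, Hoxd8, Hoxd9, Gm28230, Haglr and Lnpk averaged at least 50 counts in some group. Hoxd8 and Hoxd4, at 45058 and 52372 bp, stood at 6.13 and 6.34 CPM in wt and 6.23 and 4.39 CPM in het at day 3. On that day Hoxd9 was at 2.77 CPM in wt and 4.34 in het, Haglr at 4.74 and 4.01 and Gm28230, a gene model that overlaps Hoxd4, at 6.88 and 4.82. Lnpk, on the other side of Evx2, was the neighbour that fell at day 2.5, from 41.7 to 20.3 CPM in wt and from 52.0 to 25.4 CPM in het. In the step to day 2.5, 1 of the 5 neighbours tested was called higher and 1 lower in wt, and 5 and 1 of 7 in het. Beside these, 14.6% of all genes were called higher and 14.5% lower in wt, and 21.8% and 22.9% in het. Hoxd genes near Evx2 were thus counted in libraries in which Evx2 had at most 1 count.

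Evx1 lies at the edge of the HoxA cluster. Its antisense gene Evx1os had no counts at day 2 in any library, and reached 15.3 ± 5.42 CPM in wt and 15.3 ± 2.31 in het at day 2.5 and 8.05 ± 2.54 and 7.0 ± 4.73 by day 3 (SD, n = 3). Evx1 and Evx1os share 73 bp of exon, where their reads cannot be told apart. Hoxa7 and Hoxa9, 91644 and 82409 bp away, rose at day 2.5 as well, to 3.69 and 1.27 CPM in wt, and stood at 11.9 and 2.77 CPM at day 3. Hoxaas3, an antisense gene 98422 bp away and the neighbour with the most counts, rose to 4.39 CPM in wt and 4.69 in het at day 2.5 and stood at 37.1 and 26.4 CPM at day 3. From day 2.5 to day 3 Hoxa7 was called higher in both genotypes and Hoxa9 in het. Evx1os was lower at day 3 in het (log2 fold change -1.17, SE 0.36, edgeR adjusted p = 0.0287), and in wt its log2 fold change was -0.93 (SE 0.31, edgeR adjusted p = 0.0601).

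Nkx1-2 lies within the annotated span of Fgfr2, with no shared exon, between Oat and Lhpp. Its antisense gene Gm16764 followed the same course, from at most 0.0178 CPM in any group mean at day 0 and day 2 to 10.4 ± 4.64 CPM for wt and 6.54 ± 1.53 for het on day 2.5 (SD, n = 3). At day 3 it fell by 1.52 on the log2 scale in wt (SE 0.36, edgeR adjusted p = 0.0157) and fell by 1.25 in het (SE 0.30, edgeR adjusted p = 0.0098). Nkx1-2 and Gm16764 share 541 bp of exon, and the reads of this pair cannot be told apart. Oat and Lhpp also rose at day 2.5, by log2 fold changes of 1.39 and 2.39 in wt and 1.46 and 2.36 in het, but were expressed from day 0 on, at 46.3 and 8.07 CPM in wt. Fgfr2 had log2 fold changes of -0.21 in wt (SE 0.19, edgeR adjusted p = 0.446) and -0.11 in het (SE 0.16, edgeR adjusted p = 0.63) in the same step.

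Gad1, 75343 bp from Sp5, was the neighbour of Sp5 with the most counts. It went from 0.0889 to 11.5 CPM in wt and from 0.620 to 14.3 CPM in het between day 2 and day 2.5. It was called higher in both (log2 fold change 6.97, SE 0.65, edgeR adjusted p = 1.17e-05 in wt). Gad1 had passed the filter on low counts through its day 2.5 libraries alone, so that these calls are no test of its rise. The gene opposite Gbx2, D130058E05Rik, was called higher at day 2.5 too, by 0.85 in wt (SE 0.26, edgeR adjusted p = 0.0238) and 0.95 in het (SE 0.25, edgeR adjusted p = 0.00661). With 946 bp of shared exon, reads of this pair cannot be told apart. Agap1, 30339 bp from Gbx2, was at 27.5 to 42.7 CPM in all group means, with a log2 fold change at day 2.5 of -0.43 in wt (SE 0.16, edgeR adjusted p = 0.0545) and -0.42 in het (SE 0.13, edgeR adjusted p = 0.0205).

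The wider families and pathways around the set were counted from lists. Of 9 relatives of the members (Nkx1-1, Gbx1 and the other Sp genes), 7 were tested between day 2 and day 2.5, and 0 rose and 3 fell in each genotype, where 14.5% of all genes in wt and 22.9% in het were called lower, with a median log2 fold change of -0.26 in wt and -0.31 in het. The median over all genes was 0 and 0.01. Sp1, the widely expressed founding member of the Sp family, fell by 0.98 in wt (SE 0.13, edgeR adjusted p = 0.00023) and fell by 1.07 in het (SE 0.09, edgeR adjusted p = 7.68e-07), while Sp5 and Sp8 rose. Sp1 and Sp4 then rose from day 2.5 to day 3 in both genotypes.

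Of 16 other caudal epiblast and tail bud genes, 15 were tested in the step to day 2.5, with 12 higher and 1 lower in wt and 13 higher and 1 lower in het, and medians of 4.03 and 4.12. Among all genes, 14.6% were called higher and 14.5% lower in wt, and 21.8% and 22.9% in het. T had the largest rise, with log2 fold changes of 9.40 in wt (SE 0.52, edgeR adjusted p = 1.07e-07) and 8.90 in het (SE 0.24, edgeR adjusted p = 2.03e-11). T had passed the filter on low counts through its day 2.5 libraries alone. Its p values are thus no test of the rise, and the counts of the list are given as a description. Fgf4 was the gene that fell, by 4.59 in wt (SE 0.16, edgeR adjusted p = 9.07e-10) and it fell by 5.27 in het. Lin28a, the most abundant of the list, had log2 fold changes of 0.11 and 0.01 and passed the test in neither. From day 2.5 to day 3, 6 of the 15 were higher and 2 lower in wt and 6 higher and 1 lower in het, beside the 19.1% and 29.8% of all genes called. T and Cdx2 were not called in that step in wt, with log2 fold changes of -0.65 (SE 0.26, edgeR adjusted p = 0.104) and -0.19 (SE 0.19, edgeR adjusted p = 0.505).

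Of 13 Wnt feedback and direct target genes, 9 rose in wt and 10 in het at day 2.5 and 0 fell, with medians of 1.29 and 1.30. The shares of all genes called higher were 14.6% in wt and 21.8% in het. Dkk4, a secreted Wnt antagonist, rose from at most 0.0164 CPM in the group means at day 2 to 96.5 CPM in wt and 85.3 in het, and fell by 2.39 on the log2 scale in wt and fell by 3.01 in het at day 3. From day 2.5 to day 3, 3 of the 13 fell and 0 rose in wt, and 6 fell and 1 rose in het, beside 19.1% and 29.8% of all genes called in either direction. Ccnd1, the most abundant of this list, passed the test in neither genotype at day 2.5.

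Markers of neighbouring fates moved beside the members. Of 9 paraxial mesoderm markers, 3 were tested in wt and 4 in het at day 2.5, where 0 rose and 1 fell in wt and 2 fell in het. In this step 14.5% of all genes in wt and 22.9% in het were called lower. From day 2.5 to day 3, 5 of the 6 tested rose in wt and 5 of 7 in het, beside 19.1% and 29.8% of all genes called in either direction. Their summed level went from 9.07 to 17.1 CPM over the wt lines at day 2.5 to 50.2 to 96.0 at day 3, and from 8.16 to 13.7 CPM to 36.6 to 121 CPM in het. Mesp1 remained at 0 in wt at day 3. Dll1, a Notch ligand and the most abundant of these markers, fell by 1.96 on the log2 scale in wt and fell by 2.53 in het at day 2.5, and rose at day 3 by 2.39 and 2.50. Of 8 neural markers, 5 were tested at day 2.5, with 0 higher and 4 lower in wt and 1 higher and 3 lower in het, beside 14.5% and 22.9% of all genes called lower. Pax6 fell by 4.28 in wt and fell by 4.55 in het. Olig2 was the one that rose in het, by 0.85 (SE 0.29, edgeR adjusted p = 0.027), and in wt its log2 fold change was 0.60 (SE 0.28, edgeR adjusted p = 0.129). Otx2, an anterior neural marker, fell by 3.43 in wt and fell by 3.56 in het. Of 10 endoderm markers, 9 were tested at day 2.5, and 0 were called in wt while 7 rose in het. The shares of all genes called higher were 14.6% in wt and 21.8% in het. Hnf4a had the largest rise in het (log2 fold change 2.13, SE 0.59, edgeR adjusted p = 0.00889). Cubn, the most abundant of these markers, had log2 fold changes of -0.72 in wt (SE 0.31, edgeR adjusted p = 0.0951) and -0.15 in het (SE 0.16, edgeR adjusted p = 0.473). No endoderm marker was called in the interaction for that step.

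Of the 10 LIF response and naive pluripotency genes, 1 rose and 0 fell at day 2.5 in wt, and 3 rose and 2 fell in het, beside 29.1% and 44.7% of all genes called in either direction. Tbx3 had the largest rise, by 1.55 in wt (SE 0.35, edgeR adjusted p = 0.00497) and 2.28 in het (SE 0.26, edgeR adjusted p = 1.01e-05). Tfcp2l1 fell by 0.66 in het (SE 0.17, edgeR adjusted p = 0.00637), and in wt its log2 fold change was -0.58 (SE 0.22, edgeR adjusted p = 0.0636). Esrrb, the most abundant of this list, passed the test in neither. The part of the cells these marker lists stand for in the fall of Evx1 and Sp5 at day 3 was not tested. In bulk RNA, fewer cells expressing a gene and less RNA per cell cannot be told apart.

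The genes most like each member in time course were found among 13493 genes with a group mean of at least 3 CPM, none of them a member. Each gene was written in every library as a percentage of its own highest group mean, and likeness was the mean absolute difference over the 24 libraries. For Nkx1-2 the closest were T (5.5 percentage points), Fzd10 (5.7) and Tnfrsf19 (5.7). For Evx1 they were Cdx1 (4.1), Rtl8c (5.6) and Evx1os (6.1), and for Sp5 they were Tnfrsf19 (5.0), Evx1os (5.2) and Cdx1 (5.9). For Sp8 they were Foxb1 (6.3), Hoxb3os (6.5) and Nme5 (6.7), all with their highest mean at day 3. Gbx2 had no gene as close, with Pofut1 at 9.2, Gps2 at 10.1 and Cachd1 at 10.5 percentage points. Among the members themselves, Nkx1-2 and Sp5 differed by 4.2, Evx1 and Sp5 by 6.9 and Sp5 and Sp8 by 23.8 percentage points.

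The order of the lines was shared by 4 of the 5 induced members at day 2.5. On that day, Nkx1-2, Evx1, Sp5 and Sp8 all had their highest level in line 1, then line 2, then line 3 in wt, although for Sp8 lines 2 and 3 were level at 13.7 CPM, and in line 3, then line 1, then line 2 in het. Gbx2 had the same order in het, but in wt line 2 and line 1 were nearly level and came before line 3. Of 5 other genes looked at afterwards, T, Cdx2, Cdx4 and Axin2 had the same order in both genotypes, and Cdx1 had it in wt, with line 2 above line 1 in het. Of 11592 genes with a mean of at least 3 CPM in each day 2.5 and day 3 group, 6.07% had both orders. At day 3, het line 1 was highest and het line 2 lowest for Nkx1-2, Evx1, Sp5 and Sp8 alike. In wt these genes did not all share an order at day 3, where line 1 was highest for Nkx1-2, Evx1 and Sp5 and line 2 for Sp8, and the lowest was line 2 for Nkx1-2 and line 3 for the others. This pattern was noticed in the data, the genes share their libraries, and it is given as a description.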

How the data were processed

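Per the labels, poly(A) RNA of 24 libraries was sequenced. The authors trimmed reads (Trim Galore 0.4.4), aligned them to GRCm38.p6 (HISAT2 2.0.5) and counted them in SeqMonk, and the main deposited table holds raw counts per gene. A further table deposited by the authors holds log2 RPKM for some factors, including Nkx1-2 and Gbx2. It served only to check the scale: the length it implies was 3383 bases for Nkx1-2 and 2263 for Gbx2, against merged exons of 3264 and 2177. The deposited log2 table of Hox genes and 8 columns of group means were not used, and 0 per-sample columns were left over.

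The members were found by symbol, and members and gene lists were chosen with earlier results of these data known. Counts were tested in R 4.3.3 with edgeR 4.0.16 (TMM, filterByExpr, quasi-likelihood, groups of the comparison only) over all genes, and a gene was called where its p, adjusted by Benjamini-Hochberg, was under 0.05. Tested were het against wt within each day, consecutive days within each genotype, and their interactions. CPM used TMM factors over all 24 libraries, and exact permutation tests used log2(CPM + 1). Intervals of fitted changes are from edgeR and include the spread between lines, while the counting interval of a ratio and the level of 3 counts cover counting error only. Positions are from GENCODE vM21, in which 35545 identifiers were found. Alternatives were DESeq2 1.42.0 (size factors, Wald test), library totals, other filters, 1 fit of all libraries, the line as a block, thinning to the smallest library, a pseudocount of 0.1 and leaving out each line. Besides the members, T, Cdx2 and Smchd1, the text names from each list the largest rise and fall called at day 2.5 in each genotype and the most abundant gene, neighbours within 100 kb that overlap a member or average at least 50 counts, and the 3 genes most like each member. Others were named after their values were seen. The tests were checked on simulated data.

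For days of 1 line the line number marks repeated measures, so it pairs the libraries, and deviations from group means correlated at -0.042 to 0.179 between consecutive days of a line. Between wt and het, a shared number does not mean a shared line (-0.075 to 0.051).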

Additional observations from a re-analysis of the deposited data

How the results depend on the processing

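From day 2 to day 2.5, Nkx1-2, Evx1, Sp5, Sp8 and Gbx2 were called higher in 110 of 110 alternative fits. For Sp5, Evx1 and Nkx1-2, and Sp8 in het, this is no sign of stability, since they passed the filter through their day 2.5 libraries alone. In wt and het, log2 fold changes ranged from 6.99 to 8.80 and 6.90 to 8.68 for Nkx1-2 and from 2.77 to 3.44 and 3.19 to 5.28 for Sp8, with narrower ranges for Gbx2. The members called between het and wt and in the interactions stayed at 0 in every alternative. From day 0 to day 2 in wt, 2 members were called, against 3 with no filter, 1 with a mean of at least 50 counts, 1 after thinning, 5 in the fit of all 24 libraries and 0 to 2 when a line was left out. In het 0 were called, against 1 with no filter, 2 in the fit of all libraries and 0 to 1 without a line. From day 2.5 to day 3, the fit of all libraries called 3 members in wt in place of 4, and leaving out a line gave 0 to 5 members in wt, and 1 to 3 in het, with Evx1 alone called without het line 3. With the replicate block, 4 members in place of 2 were called in het (5 in place of 4 in wt), as were 4 with no filter, and the genes called in wt in that step went from 2923 to 4687. The block moved no other count of members. Pairs of a member and a day whose genotypes did not overlap were 2, against 1 (Gbx2 at day 0) with library totals and 2 to 6 when a line was left out.

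Counts of all genes called between het and wt went from 0 to 369 at day 0, 85 to 384 at day 2, 0 to 87 at day 2.5 and 1 to 274 at day 3 with no filter on low counts, and with DESeq2 to 84, 234, 3 and 116. The 85 genes at day 2 went to 0 to 3 without a het line and 8 to 211 without a wt line. The interactions had 0 genes called, and 58, 33 and 23 with no filter. Without wt line 2, the genes called in wt were 2249 in place of 4519 at day 2.5 and 29 in place of 2923 at day 3. Without wt line 3 they were 2545 at day 2.5 and 988 at day 3, and 4152 in place of 6869 at day 2. The cause of these shifts was not tested. Depth limits the comparisons that rest on few counts, which are those of Nkx1-2, Evx1, Sp5 and Sp8 at day 0 and day 2.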
